A study of Mus musculus with 6 samples.

Results

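The genes described are 10 genes of retinol and retinal conversion, Adh1, Rdh1, Rdh16, Aldh1a1, Aldh1a2, Aldh1a3, Rbp2, Dhrs3, Lrat and Crabp2, of 18193 genes measured on the arrays. They were chosen by name, and for each gene the brightest probe set was used, by its mean over all 6 arrays, among the probe sets annotated to that gene alone. The study compared proximal with distal colon of untreated female C57BL/6J mice, an inbred strain, with 3 libraries labelled PROXIMAL COLON and 3 labelled DISTAL COLON. All groups were controls without a transgene or treatment, and no source used here gives the age of the mice or the tissue layers taken. Per the design text 3 animals gave both tissues, but the labels do not say which numbers share an animal, so p-values reflect only how far these libraries spread. Values are log2 expression per probe set, so a difference of 1 is a 2-fold difference, and all differences are distal minus proximal. Levels of different genes were not compared, because probe sets differ in brightness.

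Vitamin A reaches the gut as retinyl esters and carotenoids. Retinol is oxidised to retinal by alcohol dehydrogenases and by microsomal retinol dehydrogenases, a step that can run in both directions, and retinal is oxidised irreversibly to retinoic acid by the retinaldehyde dehydrogenases of the Aldh1a family. Binding proteins hold retinol or retinoic acid inside cells, esterification stores retinol, and retinoic acid acts through nuclear receptors. In the intestine retinoic acid is known for its part in lymphocyte homing and in epithelial gene control.

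The labels did not separate the libraries. Hoxb13, which marks the rear end of the body axis, measured 13.39, 6.53 and 6.48 under the labels proximal 1, 2 and 3, and 13.78, 13.29 and 6.65 under distal 1, 2 and 3. Slc51a, which encodes part of a bile acid exporter, was high where Hoxb13 was low, with 5.83, 12.47 and 12.39 in proximal and 5.07, 5.94 and 12.05 in distal libraries. The library labelled proximal 1 thus went against its label, as did the library labelled distal 3, so each result is given with all 6 libraries and again without these 2, which leaves 2 libraries per label. Both were left out for their own profiles, so p-values from the 4 libraries are too small as evidence on the tissues. Defining markers of colon epithelium (12 of 12 measured) averaged 13.9 to 14.17 in every library. Array medians ran from 7.9 to 8.02, and precision is limited by how few arrays there are.

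The regulatory sequences of the 5 genes that passed the test without proximal 1 and distal 3 are shown first, since the Rdh pair among them lies in the same gene cluster and moved in opposite directions. They are the 250 bases before the RefSeq start in the assembly GRCm38.p6, written 5′ to 3′ on the strand of the gene, and windows were found for 8 of the 10 genes. Capitals mark a match on either strand to AGGTCA (a nuclear receptor half-site), AAGTCCA (a core of HNF4 sites), AGATAA (the kind of site that Gata factors bind), GTTAAT (an HNF1 half-site) or TATAAA (the box of that name in core promoters).
Rdh1 (chr10:127759513-127759762, plus strand): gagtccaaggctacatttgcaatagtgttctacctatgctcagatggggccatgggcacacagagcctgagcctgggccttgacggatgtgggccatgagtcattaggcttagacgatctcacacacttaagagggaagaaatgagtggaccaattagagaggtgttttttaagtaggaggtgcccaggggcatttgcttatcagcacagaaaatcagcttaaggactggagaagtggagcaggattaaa
Rdh16 (chr10:127800903-127801152, plus strand): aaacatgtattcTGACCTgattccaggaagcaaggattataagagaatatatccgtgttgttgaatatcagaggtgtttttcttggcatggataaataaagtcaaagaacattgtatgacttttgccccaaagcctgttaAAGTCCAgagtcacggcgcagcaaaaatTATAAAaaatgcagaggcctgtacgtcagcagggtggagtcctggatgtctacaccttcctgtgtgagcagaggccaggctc
Adh1 (chr3:138277335-138277584, plus strand): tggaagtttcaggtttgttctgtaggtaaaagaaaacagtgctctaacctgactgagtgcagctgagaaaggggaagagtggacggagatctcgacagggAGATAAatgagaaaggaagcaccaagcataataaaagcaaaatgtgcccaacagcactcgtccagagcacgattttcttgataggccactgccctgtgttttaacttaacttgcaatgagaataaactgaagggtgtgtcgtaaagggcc
Aldh1a1 (chr19:20492333-20492582, plus strand): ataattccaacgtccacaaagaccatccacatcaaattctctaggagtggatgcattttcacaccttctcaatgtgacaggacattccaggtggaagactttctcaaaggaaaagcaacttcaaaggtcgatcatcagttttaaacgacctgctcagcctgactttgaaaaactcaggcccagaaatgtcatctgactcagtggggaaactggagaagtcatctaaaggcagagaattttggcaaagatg
Rbp2 (chr9:98490287-98490536, plus strand): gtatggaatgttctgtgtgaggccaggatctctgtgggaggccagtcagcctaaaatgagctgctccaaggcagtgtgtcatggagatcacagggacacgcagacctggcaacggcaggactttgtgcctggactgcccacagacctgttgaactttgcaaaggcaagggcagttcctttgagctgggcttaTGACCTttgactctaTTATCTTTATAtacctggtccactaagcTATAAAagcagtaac

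In Rdh16, AAGTCCA began 110 bases before the start, TATAAA 82 bases before it and AGGTCA, on the opposite strand, 238 bases before it. In Rbp2, AGGTCA began 58 bases before the start on the opposite strand, AGATAA 43 bases before it on the opposite strand, and TATAAA 38 bases before it on the opposite strand and 15 bases before it on the same strand, where the AGATAA match and the first TATAAA match share a base. The Adh1 window held AGATAA 150 bases before the start, and the windows of Rdh1 and Aldh1a1 shown here held none of the 5 motifs. RefSeq gives Aldh1a1 another start further along the chromosome, and the window shown is the one nearest the first base of the gene. The window before the other start (from chr19:20601718, not shown) held AGATAA 32 bases before that start. Which start is used in the colon was not tested. Such windows numbered 32851 over the genes in the RefSeq table, leaving out 1 chromosome that holds none of the members. Of these, 14.0% held AGGTCA, 3.36% AAGTCCA, 9.99% AGATAA, 6.43% GTTAAT and 12.4% TATAAA. A direct repeat of AGGTCA with a spacer of 5 bases, a form of retinoic acid response element, stood in 3 of these windows, a spacer of 2 bases in 3 and of 1 base in 11, and in none (0) of the members' windows. Only exact repeats were counted, and these are so rare that their absence from the members' windows tells little. A match describes letters in this window only.

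As labelled, none of the 10 genes passed in the comparison of distal with proximal colon. Differences ran from -1.49 for Rdh1 to 0.78 for Rdh16, with limma adjusted p from 0.824 to 0.927 over all 18193 genes, and 4 of the 10 had a positive and 6 a negative sign. In all, limma called 0 genes (0.00%) at an adjusted p of 0.05, with 554 at an unadjusted p of 0.05, of which 0 were among the 10. Groups without overlap between distal and proximal values were found for 0 of the 10 genes, against 7.33% of all genes. With array weights estimated from the data, limma called 5579 genes and 7 of the 10, namely Adh1, Rdh16 and Crabp2 as higher and Rdh1, Aldh1a1, Aldh1a2 and Lrat as lower in distal libraries. The weights were 0.322, 6.72 and 1.57 for proximal 1, 2 and 3 and 2.5, 0.403 and 0.291 for distal 1, 2 and 3. Distal 2, which stays in the comparison of 4 libraries, thus also had a low weight. The weights were estimated from the same values and labels, so libraries far from others of their label count less. The p-values of the weighted fit are therefore also too small as evidence on the tissues.

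With proximal 1 and distal 3 left out, 5 of the 10 genes differed, 2 higher and 3 lower in distal libraries, where 19.2% of all genes were called (7.71% higher and 11.5% lower). Adh1 and Rdh16, which oxidise retinol, were higher, while the retinol dehydrogenase Rdh1, the retinaldehyde dehydrogenase Aldh1a1 and the retinol carrier Rbp2 were lower. All 5 passed with a difference of at least 1 on the log2 scale, as did 6.28% of all genes. The median size of the difference was 1.28 over the 10 genes and 0.23 over all genes, and the median signed difference was -0.46 and -0.04. With arrays centred on their medians, the part of all calls that was higher in distal libraries went from 40.1% to 54.7%. There 4 of the 10 genes were called, 2 in each direction, and 3440 of all 18193 genes. There was no overlap between the 2 distal and 2 proximal values in 8 of the 10 genes, against 62.2% of all genes.

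**Figure D1:**
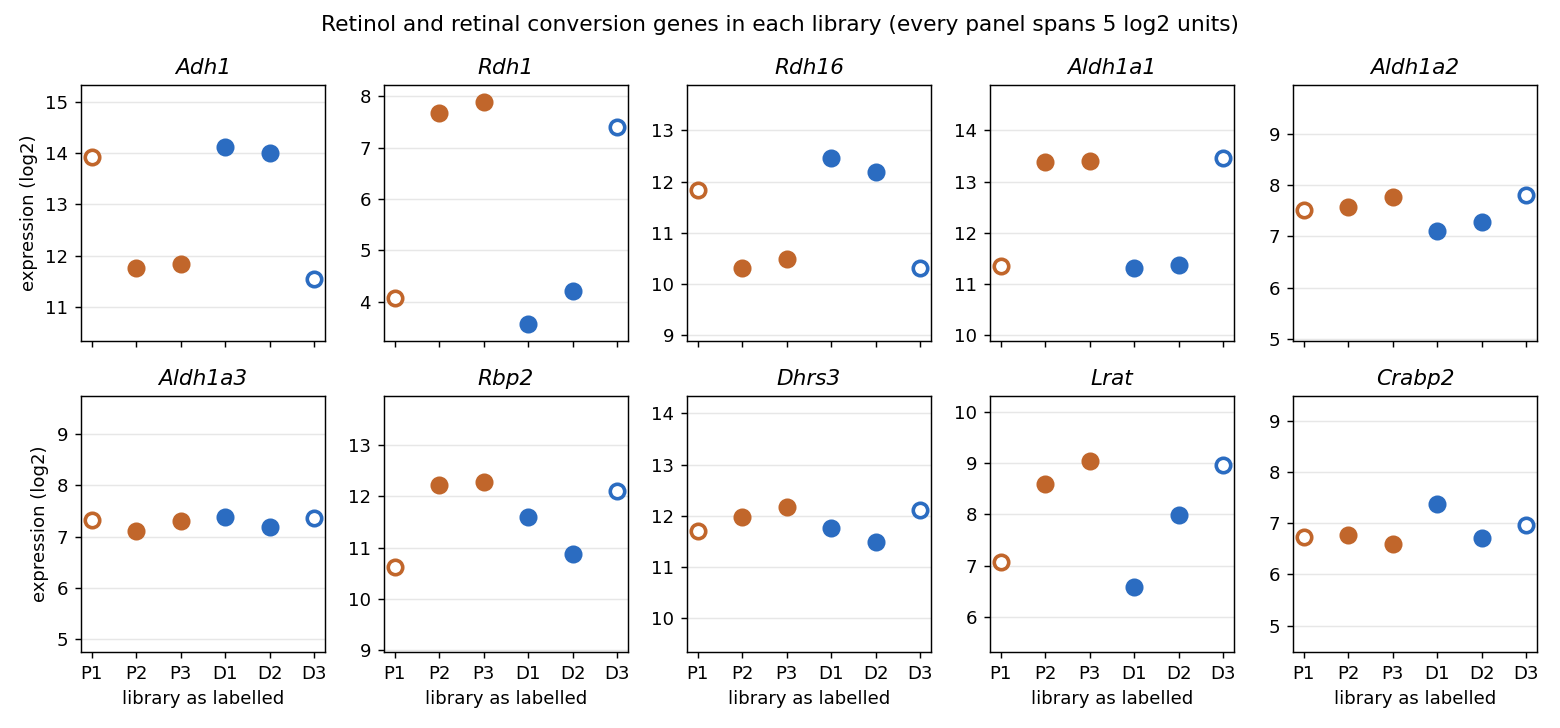
Expression (log2) of each of the 10 genes in each library, P1 to P3 labelled proximal (orange) and D1 to D3 labelled distal (blue), with open points for proximal 1 and distal 3. In Adh1, Rdh1, Rdh16 and Aldh1a1 the values of proximal 1, distal 1 and distal 2 lie together, apart from those of proximal 2, proximal 3 and distal 3, while Aldh1a3 spans 0.27 and Crabp2 0.78 over all libraries.

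Of the enzymes that oxidise retinol, Adh1, a cytosolic alcohol dehydrogenase of broad substrate range that also oxidises ethanol, measured 13.93, 11.76 and 11.83 in proximal 1, 2 and 3 and 14.12, 14.00 and 11.54 in distal 1, 2 and 3. The labelled groups overlapped, and the values fell into a high set of proximal 1, distal 1 and distal 2 and a low set of the other libraries. As labelled, distal libraries averaged 13.22 ± 1.46 (SD, n = 3) and proximal 12.51 ± 1.23 (SD, n = 3), a difference of 0.71 (SE 0.88, limma adjusted p = 0.848). Without proximal 1 and distal 3 the difference was 2.26 (SE 0.11, limma adjusted p = 0.000536), a 4.81-fold higher level in distal libraries, and it stayed between 2.20 and 2.36 over the settings tried. The gap within the pair was 0.12 for distal 1 and 2 and 0.07 for proximal 2 and 3.

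Rdh1, a microsomal dehydrogenase of all-trans retinol, had the largest range of the 10 genes, 4.33. It measured 4.07, 7.68 and 7.89 in proximal 1, 2 and 3 and 3.56, 4.21 and 7.40 in distal 1, 2 and 3. Here proximal 1, distal 1 and distal 2 were the low set, and no value lay between 4.21 and 7.40. The difference was -1.49 (SE 1.37, limma adjusted p = 0.824) as labelled and -3.90 (SE 0.23, limma adjusted p = 0.000988) in the 4 libraries, lower in distal libraries. Without proximal 3 as well, it was -3.80 with a limma adjusted p of 0.0552. The distal pair averaged 3.88, under the lower quartile of gene values over all arrays (6.54), and without detection calls it is not known whether the probe set was above background there, so no fold is given.

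Rdh16, a microsomal dehydrogenase of the same family that acts on retinols and on hydroxysteroids, ran against Rdh1. Its values were 11.84, 10.31 and 10.48 in proximal 1, 2 and 3 and 12.46, 12.19 and 10.32 in distal 1, 2 and 3. Proximal 1 lay below distal 1 and 2 but far above the other libraries. The difference was 0.78 (SE 0.66, limma adjusted p = 0.824) as labelled and 1.93 (SE 0.14, limma adjusted p = 0.00182) in the 4 libraries, 3.81-fold. With 1 more library left out, the limma difference was 1.84 for proximal 2 left out (adjusted p = 0.073), 2.02 for proximal 3 (0.0685), 1.8 for distal 1 (0.0491) and 2.06 for distal 2 (0.0521). A probe set that the annotation gives to both Rdh16 and the pseudogene Rdh18-ps showed the same order of high and low libraries, with 11.95, 9.82 and 9.86 in proximal and 12.47, 12.47 and 9.88 in distal libraries. Whether the Rdh16 probe set also detects its close relatives was not tested.

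Rdh1 and Rdh16 belong to a cluster of Rdh genes on chromosome 10, where the RefSeq order is Rdh1, Rdh9, Rdh16, the pseudogene Rdh18-ps, Rdh19, Rdh16f2 and Rdh7. In the 4 libraries measured members of this cluster differed in both directions, Rdh1 and Rdh7 being lower and Rdh16 and Rdh16f2 higher in distal libraries. Rdh9, which lies between Rdh1 and Rdh16, differed by -0.48 (SE 0.23, limma adjusted p = 0.198), and its values ran from 10.98 in proximal 1 to 11.81 in proximal 3. Rdh16f2, a gene named here after its values were seen, was higher in distal libraries by 2.64 (SE 0.13, limma adjusted p = 0.000572), with 8.05, 6.34 and 6.21 in proximal and 8.79, 9.03 and 5.92 in distal libraries. Rdh7 was lower by 0.66 in distal libraries (-0.66, SE 0.13, limma adjusted p = 0.0255), with a highest value of 5.36, in the dim range.

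**Figure D2:**
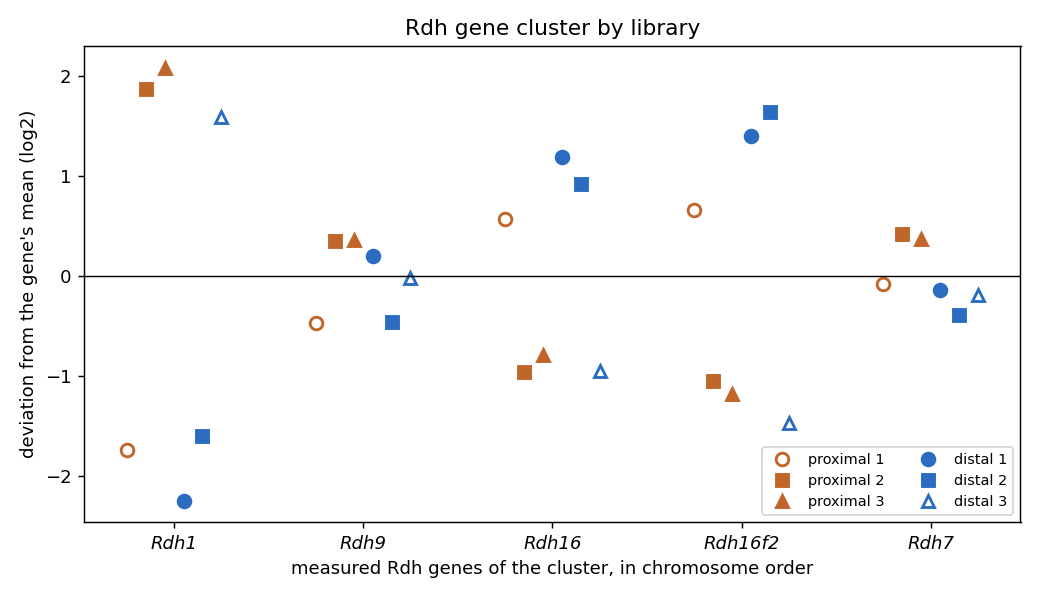
Deviation of each library from the mean of the gene over 6 libraries (log2) for the measured Rdh genes of the chromosome 10 cluster, in chromosome order, with open symbols for proximal 1 and distal 3. Rdh1 and the pair Rdh16 and Rdh16f2 have opposite high and low libraries, and Rdh9 between them has a 4-library difference of -0.48 that did not pass.

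The alcohol dehydrogenase cluster on chromosome 3 also differed gene by gene. The RefSeq order is Adh7, Adh1, Adh6a, Adh6b, Adh6-ps1, Adh4 and Adh5. Adh1 was higher in distal libraries of the 4, whereas Adh5, which encodes a formaldehyde-clearing enzyme with little activity on retinol, was lower by 1.06 (-1.06, SE 0.11, limma adjusted p = 0.00479). Adh7, the class IV enzyme of upper digestive epithelium that oxidises retinol efficiently, differed by 0.28 (SE 0.16, limma adjusted p = 0.288). Adh6a, Adh6b, Adh6-ps1 and Adh4 differed by 0.10, -0.20, 0.01 and -0.07, and their adjusted p ran from 0.501 to 0.965.

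Of the enzymes that make retinoic acid from retinal, Aldh1a1 alone passed in the 4 libraries. It measured 11.36, 13.39 and 13.41 in proximal 1, 2 and 3 and 11.32, 11.37 and 13.45 in distal 1, 2 and 3. The 3 high values lay within a few hundredths of each other, as did the 3 low ones. The difference was -0.67 (SE 0.78, limma adjusted p = 0.842) as labelled and -2.06 (SE 0.10, limma adjusted p = 0.000583) in the 4 libraries, a 4.16-fold lower level in distal libraries. It ran from -2.08 to -1.96 over the settings tried, with a highest adjusted p of 0.0499. Aldh1a7, a close relative next to Aldh1a1 on chromosome 19, was lower in distal libraries by 0.80 (-0.80, SE 0.11, limma adjusted p = 0.00927), and whether probes of either gene also detect the other was not tested.

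Aldh1a2, the retinaldehyde dehydrogenase known from mucosal dendritic cells, mesothelium and stroma, measured 7.51, 7.57 and 7.76 in proximal and 7.11, 7.29 and 7.80 in distal libraries. Proximal 1 lay nearer proximal 2 and 3 here, unlike in Aldh1a1. The 4-library difference was -0.46 (95% interval -0.79 to -0.14, limma adjusted p = 0.0634), and the difference as labelled was -0.21 (SE 0.19, limma adjusted p = 0.824). Markers of dendritic cells and macrophages (12 of 13 measured) averaged 8.79, 8.81 and 9.08 in proximal and 8.51, 8.47 and 8.83 in distal libraries. Mesothelial markers (8 of 8 measured, 4 of them below 6.54 in every library) averaged 7.53, 7.12 and 7.08 in proximal and 7.36, 7.02 and 7.68 in distal libraries, and the part of either cell type in Aldh1a2 was not tested. In pieces of tissue, fewer cells of a type and less RNA per cell cannot be told apart.

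Aldh1a3, the third member of that family, spanned 0.27 over the 6 libraries on its brightest probe set, from 7.11 in proximal 2 to 7.38 in distal 1. The difference was 0.06 (SE 0.11, limma adjusted p = 0.884) as labelled and 0.08 (95% interval -0.26 to 0.41, limma adjusted p = 0.74) in the 4 libraries. Its 3 probe sets disagreed. One of the other 2 measured 7.13, 7.68 and 7.75 in proximal and 7.03, 6.67 and 7.19 in distal libraries. Its 4-library difference was -0.86 (SE 0.15, limma adjusted p = 0.0165 over all probe sets with 1 gene listed). The last differed by -0.37 (adjusted p = 0.0651, limma). No direction is therefore given for Aldh1a3.

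Rbp2, the cellular retinol binding protein of absorptive enterocytes, measured 10.63, 12.23 and 12.29 in proximal 1, 2 and 3 and 11.59, 10.87 and 12.11 in distal 1, 2 and 3. Proximal 2, proximal 3 and distal 3 were high and close to each other, while the other libraries were lower and more spread out. The difference was -0.19 (SE 0.52, limma adjusted p = 0.927) as labelled and -1.03 (SE 0.24, limma adjusted p = 0.0415) in the 4 libraries, 2.04-fold lower in distal libraries. The call was lost with arrays centred on their medians (-0.94, limma adjusted p = 0.0566), without proximal 2 (-1.06, 0.27), without proximal 3 (-1.0, 0.31) and without distal 2 (-0.67, 0.0633), and it was -1.39 (0.0491) without distal 1. Markers of small intestinal enterocytes (11 of 12 measured, Fabp1 and Apoa1 among them) averaged 8.25, 10.45 and 10.32 in proximal and 8.42, 8.29 and 9.94 in distal libraries. These markers and Rbp2 were high in the same libraries, and their part in its level was not tested.

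Lrat, which esterifies retinol for storage, measured 7.08, 8.60 and 9.04 in proximal 1, 2 and 3 and 6.58, 7.98 and 8.96 in distal 1, 2 and 3. The libraries formed no tight sets, since distal 1 and 2 lay 1.40 apart. The difference was -0.40 (SE 0.73, limma adjusted p = 0.886) as labelled and -1.54 (95% interval -2.70 to -0.38, limma adjusted p = 0.0746) in the 4 libraries. It was -0.84 without distal 1 and -2.24 without distal 2, with adjusted p of 0.134 and 0.066. The dimmer probe set of Lrat gave -0.55 in the 4 libraries.

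Dhrs3, a reductase that returns retinal to retinol and is known as a retinoic acid target, measured 11.71, 11.97 and 12.18 in proximal and 11.76, 11.50 and 12.11 in distal libraries. The 4-library difference was -0.44 (95% interval -0.81 to -0.08, limma adjusted p = 0.0911), and the difference as labelled was -0.16 (SE 0.20, limma adjusted p = 0.846). Crabp2, which carries retinoic acid to its nuclear receptors, measured 6.72, 6.76 and 6.59 in proximal and 7.37, 6.70 and 6.96 in distal libraries. Distal 1 had the highest value of Crabp2, and the 4-library difference of 0.36 (95% interval -0.23 to 0.95, limma adjusted p = 0.343) became 0.02 without that library.

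**Figure D3:**
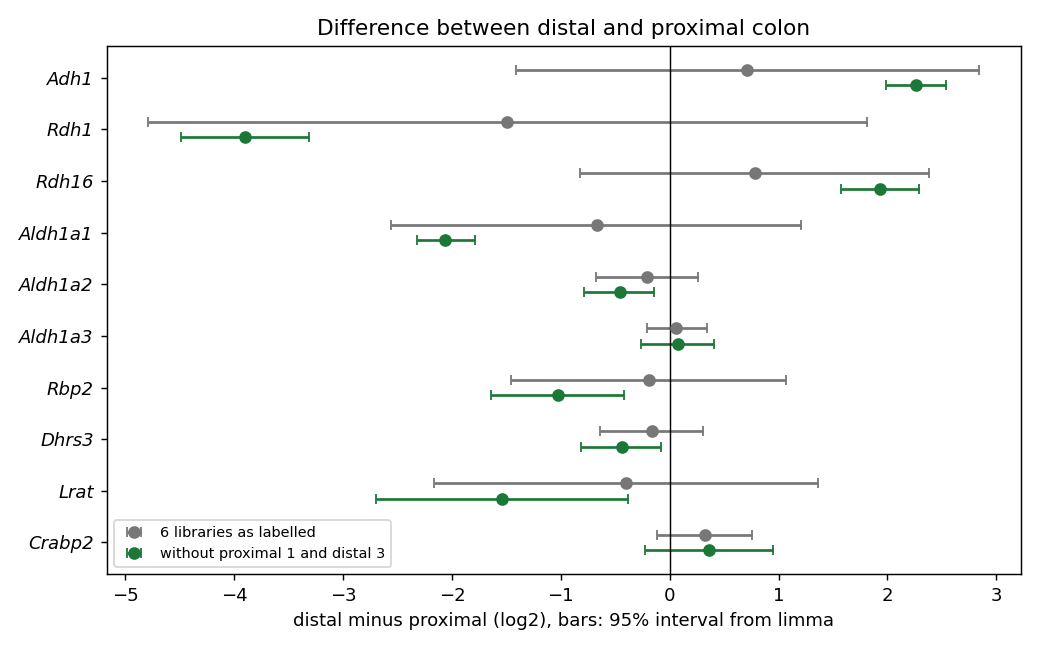
Difference between distal and proximal libraries (log2, horizontal axis) for each of the 10 genes, in grey for 6 libraries as labelled and in green without proximal 1 and distal 3, with 95% intervals from limma as bars. All grey bars cross 0, and the green points of Adh1 (2.26), Rdh16 (1.93), Aldh1a1 (-2.06) and Rdh1 (-3.90) lie farthest from it.

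The libraries left out were not alike in other tissue content. Markers of pancreatic acinar cells (8 of 13 measured, 0 of them below 6.54 in every library) averaged 12.43 in proximal 1 and 12.42 in distal 1, against 6.43 to 6.70 in the other 4 libraries. Of the 4 libraries kept, distal 1 is thus the one with high values of these markers. Without distal 1 as well, distal 2 is the only distal library left, so only differences are listed here. For the 5 called genes they were 2.20 (Adh1), -3.58 (Rdh1), 1.8 (Rdh16), -2.03 (Aldh1a1) and -1.39 (Rbp2). The other members then differed by -0.38 (Aldh1a2), -0.02 (Aldh1a3), -0.57 (Dhrs3), -0.84 (Lrat) and 0.02 (Crabp2). Adipocyte markers (6 of 8 measured) ranged from 9.71 in distal 2 to 11.32 in proximal 2, fibroblast markers (10 of 10) from 11.27 to 11.77, smooth muscle markers (10 of 10) from 12.65 to 13.16 and endothelial markers (7 of 7) from 8.98 to 9.39, and their part was not tested. Across the 10 genes, proximal 1 lay nearer the mean of distal 1 and 2 in 8, against 57.1% of all genes, and distal 3 nearer the mean of proximal 2 and 3 in 8, against 70.7% of all genes. The exceptions were Aldh1a2 and Crabp2 for proximal 1, and Aldh1a3 and Crabp2 for distal 3.

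Other genes of the pathway, from 7 lists by role, were mostly lower in distal libraries where they passed. Of 62 measured genes outside the 10, 0 passed as labelled, and in the 4 libraries 24 passed, 2 higher and 22 lower in distal libraries, where 19.2% of all genes passed (7.71% higher and 11.5% lower), with a median difference of -0.33 against -0.04 over all genes. The count was 23 (3 higher, 20 lower) after quantile normalization and 22 (3 higher, 19 lower) after median centring. Leaving out 1 more library leaves 1 library in a group, so only median differences are given for the lists in those fits. For these genes they were -0.34 (proximal 2 left out), -0.26 (proximal 3), -0.39 (distal 1) and -0.24 (distal 2). All values below are from the 4 libraries.

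Of 17 other retinol and retinal oxidoreductases 7 were lower in distal libraries and 0 higher, against 11.5% and 7.71% of all genes. With the mean of each gene's probe sets 5 were lower and 2 higher, with quantile normalization or median centring 6 lower and 1 higher, and 0 passed without proximal 2, proximal 3 or distal 2 and 4 without distal 1. Besides Adh5, the lowest adjusted p were those of Rdh14 (-0.80, SE 0.10, limma adjusted p = 0.00835), a broadly expressed retinol dehydrogenase, Akr1b8 (-0.74, 0.0107), an aldo-keto reductase, and Retsat (-0.72, 0.0111), which saturates retinol. Rdh10, the main retinol dehydrogenase of the mouse embryo, differed by -0.12 (95% interval -0.39 to 0.16, limma adjusted p = 0.519). Of 10 genes of retinyl ester storage and release 8 were lower and 0 higher, again against 11.5% and 7.71% of all genes, with a list median of -1.39. That median was -1.3 when proximal 2 was dropped too, -1.34 for proximal 3, -1.49 for distal 1 and -1.22 for distal 2. The 8 lower genes include the carboxylesterases Ces1g (-4.67, SE 0.16, limma adjusted p = 0.000224), Ces1f (-2.06, SE 0.12) and Ces1d (-1.73, SE 0.16). The hormone-sensitive lipase Lipe (-1.36, SE 0.11) is another. Carboxylesterases have many substrates and similar sequences, so their probe sets can include signal of relatives.

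Carotenoid genes moved in both directions. Isx, a homeobox repressor of carotenoid uptake and cleavage that retinoic acid is known to induce in the intestine, measured 8.92, 12.54 and 12.66 in proximal and 7.90, 8.97 and 12.39 in distal libraries. It was lower in distal libraries by 4.16 (-4.16, SE 0.34, limma adjusted p = 0.00246). Bco1, the enzyme that cleaves beta-carotene to retinal and a known target of Isx, measured 7.72, 7.41 and 7.45 in proximal and 8.47, 8.20 and 7.50 in distal libraries, and was higher by 0.90 (SE 0.13, limma adjusted p = 0.0115). Scarb1, a scavenger receptor that takes up carotenoids, differed by -0.08 (95% interval -0.60 to 0.45, limma adjusted p = 0.837). Of the 5 genes in this list 2 passed, 1 in each direction, with 19.2% of all genes as background. In this list 0 passed without proximal 2 or proximal 3, 2 without distal 1 and 1 (lower) without distal 2.

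Of 11 carriers and uptake genes 1 was higher and 2 were lower in distal libraries, a count near the 19.2% of all genes. It was 2 after quantile normalization or median centring. The list median, -0.09, was -0.14 without proximal 2 or proximal 3, -0.04 without distal 1 and -0.16 without distal 2. Stra6, the cell surface receptor for retinol bound to its serum carrier, was higher by 1.07 (SE 0.13, limma adjusted p = 0.00617). Its proximal mean of 6.1 lay in the dim range. Crabp1, a retinoic acid binding protein related to Crabp2, was lower by 1.5 (-1.5, SE 0.13, 0.00272), and Fabp5, a fatty acid binding protein that can bind retinoic acid, by 0.78 (-0.78, SE 0.20, 0.0474). Of 5 genes of retinoic acid breakdown 2 were lower, against 11.5% of all genes. These were Cyp3a13 (-1.39, SE 0.14) and Cyp3a11 (-2.31, SE 0.26, with a distal mean of 3.5 in the dim range). The dedicated retinoic acid hydroxylases Cyp26a1 and Cyp26b1 differed by -0.34 and -0.44 with limma adjusted p of 0.157 and 0.123. With 1 more library left out the median of the breakdown genes ran from -0.65 to -0.24.

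Among receptors and response genes 1 of each list passed. With 1 more library left out the list median ran from -0.25 to -0.06 for receptors and from -0.26 to -0.19 for response genes. Of 7 receptors Rxra, the partner of the retinoic acid receptors, was lower by 0.72 (-0.72, SE 0.10, limma adjusted p = 0.0108). That is a share of 14.3%, against 19.2% of all genes. Rara, Rarb and Rarg differed by -0.24, -0.32 and -0.39 with limma adjusted p of 0.467, 0.167 and 0.0723. Of 12 response genes, a list that holds Dhrs3, Crabp2, Rarb, Cyp26a1 and Cyp26b1 as well, only Rai14 passed (-0.55, SE 0.12, limma adjusted p = 0.034). This was a share of 8.33% against 19.2% of all genes. The count of response genes was 0 after median centring or with the mean of each gene's probe sets. It was 1 after quantile normalization and 2 with the trended and robust variance prior of limma, where 4577 of all 18193 genes passed.

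**Figure D4:**
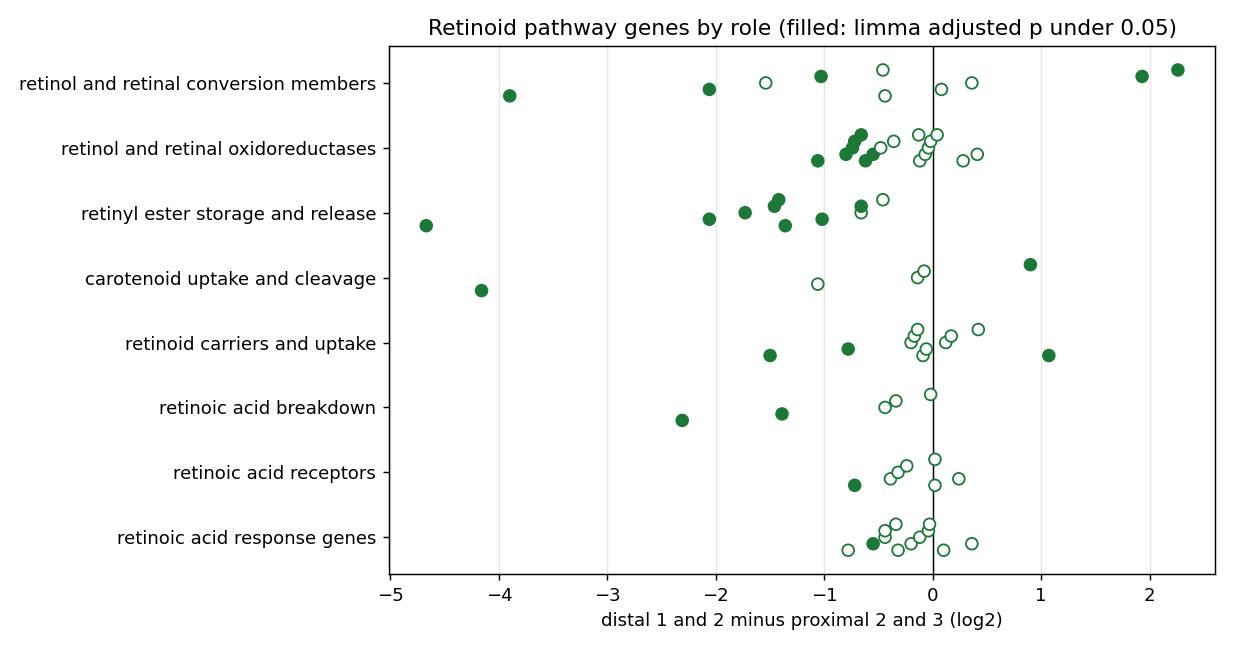
Difference of distal 1 and 2 minus proximal 2 and 3 (log2, horizontal axis) for every measured gene of the retinoid lists, grouped by role, with filled points for a limma adjusted p under 0.05. In the list of storage and release all points lie left of 0, whereas the 10 retinol and retinal conversion genes span -3.90 to 2.26.

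Genes whose profile over the 6 libraries was most like that of a member were named by Pearson's r among 2270 genes with a range of at least 1. For Adh1 these were Tgm3 (r = 0.9993), Insl5 (0.9991) and Slc28a3 (0.9985), and for Rdh16 they were Pdp2 (0.9978), Gpr137b (0.9974) and Sfxn5 (0.9965). For Rdh1 they were Gstk1 (0.9997), Hkdc1 (0.9995) and Sdcbp2 (0.9994), and for Aldh1a1 Mal (0.9996), Hoxb4 (0.9987) and Acaa1b (0.9986). Rbp2 was most like Ces2a (0.9881), Drc3 (0.9841) and Cideb (0.9798), and Lrat most like Nbea (0.9959), Ddx43 (0.9942) and B3gnt6 (0.9903). The libraries fall into 2 sets for most of these genes, so r mainly describes that split and is given without a test.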

How the data were processed

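Total RNA of 6 libraries was measured on 1 single-colour array each. Tissue was lysed in Trizol and RNA amplified and biotin labelled with NuGEN Ovation kits, per the labels' protocols. The authors made the log2 values with RMA in Partek 6.5, per the submitters' processing notes; the log2 scale is taken from RMA and from a range of 2.91 to 15.07 without control probe sets. RMA equalises arrays, so a change common to most genes is hidden.

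Of 45101 probe sets, 34945 with 1 gene listed gave 18193 genes, and 34741 symbols were updated by gene identifier (RefSeq, GRCm38.p6, names and gene order only). Groups came from the labels. limma 3.58.1 under R 4.3.3 was used (lmFit, eBayes, two-sided, Benjamini-Hochberg over all genes, threshold 0.05, no block). Members, lists, tests and alternatives were chosen with earlier results of these data known. Named genes were the members, up to 4 genes per list with the smallest adjusted p among those past 0.05 in the 4 libraries, and the 3 genes most like each member with a range of at least 1. The fit of 4 libraries and its alternatives were added to the planned ones. The calculation was tested on simulated data in which every library followed its label, so that test does not cover libraries like proximal 1 and distal 3.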

Additional observations from a re-analysis of the deposited data

How the results depend on the processing

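As labelled, 0 genes and 0 of the 10 members passed under quantile normalization, median centring, the mean of probe sets, the dim filter, the trended and robust prior and with each library left out (0 to 0). Array weights gave 5579 genes and 7 members, and leaving out proximal 1 and distal 3 gave 3494 genes and 5 members. With the replicate block the counts were 0 and 0. The deviations of same-numbered libraries from their group means correlated at 0.68, -0.45 and 0.68 for numbers 1, 2 and 3. Those means include proximal 1 and distal 3, which went against their labels, so these values cannot show which libraries share an animal. The numbers were not taken as pairs, because the labels do not say which of them share an animal. As labelled, the sign turned for Aldh1a3 with the mean of its probe sets (-0.21) and on its other probe sets (-0.56 and -0.15). It also turned with 1 library left out for Rbp2 (-0.74 to 0.13) and Lrat (-0.98 to 0.23).

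In the 4 libraries, leaving out 1 more gave 146 to 1633 genes and 2 to 5 members, with 1 residual degree of freedom and the lone library assumed to vary like the other pair. Adh1 and Aldh1a1 passed under each of these. Without proximal 2 there were 165 genes and 3 members, without distal 2 405 genes and 3 members. With the trended and robust prior 7 members passed, Dhrs3 and Lrat among them, where 4577 of all 18193 genes passed. Without dim genes, a filter that leaves 5 members, 4 passed, where 3242 of 9099 genes passed. The sign of Aldh1a3 turned with the mean of its probe sets (-0.39), on its other probe sets (-0.86 and -0.37) and ran from -0.02 to 0.18 with 1 library left out. The cause of these changes was not tested. The number of arrays and the lack of detection calls limit low genes such as Rdh1.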
